A study of Mus musculus with 20 samples.

Results

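The collagen genes are described here on 20 single-colour expression arrays from mice labelled Irgm1-/- and wild type (WT). A gene was taken as a member where a non-control probe was named Col, a number, the letter a and a number, and where a gene had several probes the brightest on average was used. That gave 43 collagen genes, measured by 67 probes, of 30139 genes or transcripts on the array. A gene counted as detected in a tissue where its probe was well above background, by the scanner software's own flag, on 3 or more arrays of that tissue. By this rule 19 of the 43 genes were detected in salivary gland, 30 in small intestine and 33 in colonic macrophages. There were 18 detected in all 3 tissues and 38 in at least 1, and the 5 detected in none were Col2a1, Col9a3, Col10a1, Col11a1 and Col6a6.

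Whole salivary gland came from 4 mice labelled Irgm1-/-, all female and 9 weeks old, and 4 WT mice, all female, of which 2 were 6 and 2 were 7 weeks old. Whole duodenum, called small intestine, came from 3 mice labelled Irgm1-/- (2 males and 1 female) and 3 WT females, and macrophages isolated from the colon came from the same 6 animals. These mice were 6 to 8 weeks old, and mice of the same number had the same age in both genotypes; the numbers run separately in each tissue, so intestinal mouse 1 is not macrophage mouse 1. All mice were on the C57BL/6 background, and none of the groups was treated. Irgm1 encodes an immunity-related GTPase induced by interferons. Its probe gave more signal on arrays labelled Irgm1-/- than on WT arrays, by a log2 difference of 2.64 (SE 0.23, limma adjusted p = 0.000644) in salivary gland, 1.16 (adjusted p = 0.0542) in small intestine and 0.88 (adjusted p = 0.318) in macrophages. Which exons the allele lacks is not given in the labels, so the probe does not check them. Every genotype direction below follows the labels, and all of them would turn if the labels were exchanged, which was not tested.

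Collagens are triple helices of chains in which glycine recurs at regular intervals. Fibrillar collagens (types I, III and V among them) form the cables of connective tissue and are made mainly by fibroblasts and smooth muscle cells. Type IV forms the network of basement membranes, types XV and XVIII sit in basement membrane zones, type VI forms beaded microfilaments around cells, and the fibril-associated types decorate fibril surfaces. Macrophages are not a main source of fibrillar collagen, so in a macrophage preparation or a whole tissue these transcripts are commonly read as a measure of stromal cells. In bulk samples, fewer cells of a type and less RNA per cell cannot be told apart.

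The glycine repeat can be read in the array's own probes. Of the 67 collagen probes, 2 carry it along their whole 60 bases, in the frame that sets a glycine codon, GGN, at every repeat of the helix. They are shown because the collagen helix can be read in them, with the 6 glycine codons in capitals. Neither is the brightest probe of its gene, on which the values in later paragraphs rest:
Col15a1 probe: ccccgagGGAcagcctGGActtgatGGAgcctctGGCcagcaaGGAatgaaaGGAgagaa
Col25a1 probe: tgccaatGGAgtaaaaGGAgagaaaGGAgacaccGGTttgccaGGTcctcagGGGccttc
The first belongs to a basement membrane zone collagen and the second to a transmembrane collagen. On the macrophage arrays the printed Col15a1 probe stood at -1.96, -0.86 and -1.03 in the mice labelled Irgm1-/- and at 0.18, 1.09 and 0.80 in the WT mice, as log2 levels relative to the array's 75th percentile, with no overlap. The printed Col25a1 probe was well above background on 1 of these 6 arrays, while another probe of the gene was so on all 6.

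Promoters of a type I, a type III and a type VI gene, all lower in macrophages with groups apart, are shown so that their upstream letters can be compared. Each is the 250 bases before the RefSeq start (GRCm38.p6), 5′ to 3′ on the gene's strand, with matches to the CCAAT box, the TATAAA element and the GC box (letters GGGCGG), searched on both strands, in capitals:
Col1a2, chr6:4505368-4505617, plus strand: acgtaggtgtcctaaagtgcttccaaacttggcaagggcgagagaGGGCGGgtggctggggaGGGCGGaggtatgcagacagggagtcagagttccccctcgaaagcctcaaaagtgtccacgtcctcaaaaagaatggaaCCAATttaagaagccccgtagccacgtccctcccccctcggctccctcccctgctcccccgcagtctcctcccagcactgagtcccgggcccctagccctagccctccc
Col3a1, chr1:45311288-45311537, plus strand: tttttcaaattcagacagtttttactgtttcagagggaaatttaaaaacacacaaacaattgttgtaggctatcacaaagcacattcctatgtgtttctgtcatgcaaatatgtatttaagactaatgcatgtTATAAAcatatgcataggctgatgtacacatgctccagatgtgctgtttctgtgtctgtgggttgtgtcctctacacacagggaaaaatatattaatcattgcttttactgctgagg
Col6a1, chr10:76726045-76726294, minus strand: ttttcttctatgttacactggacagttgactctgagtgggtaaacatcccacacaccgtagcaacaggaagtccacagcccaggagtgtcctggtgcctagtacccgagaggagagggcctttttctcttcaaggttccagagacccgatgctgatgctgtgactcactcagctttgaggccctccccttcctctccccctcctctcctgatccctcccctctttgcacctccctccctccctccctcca
The Col1a2 window holds 3 matches that do not overlap and is 62.0% G or C, the Col3a1 window holds 1 and is 35.2% G or C, and the Col6a1 window holds none and is 63.2% pyrimidine. RefSeq promoters, which run from 250 bases before to 50 bases after a start, were at hand for 35 of the 43 genes (38 promoters). Only the 250 bases before the start were searched. There CCAAT was in 34.2% of these and in 33.8% of all 32851 promoters, TATAAA in 13.2% and 12.4%, and GGGCGG in 57.9% and 32.7%. Such matches are descriptions of letters, not binding sites. The starts of Col4a1 and Col4a2, which encode the chains that pair in the common type IV network, lie head to head, 21 bases apart on chromosome 8 on opposite strands. Those of Col4a6 and Col4a5 lie 1343 bases apart on chromosome X.

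Intensities are compared as levels, the log2 of a probe's background-subtracted signal minus the 75th percentile of its array, so that 0 is that percentile. The percentile itself ran from 130.2 to 1021.7 in salivary gland, 2321.5 to 4689.5 in small intestine and 922.4 to 2137.1 in macrophages, and 25.2% to 48.7%, 52.6% to 62.1% and 57.0% to 74.2% of probes were well above background. Salivary gland is the dimmest set, so a collagen missing there may lie below what its arrays resolve. Brightness ran with genotype in small intestine, where all 3 arrays labelled Irgm1-/- had a higher percentile than any WT array. Each tissue was scanned on a day of its own, on 2 slides that each held both genotypes. The separate mice are the replicates, and the number of arrays limits the precision.

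On the macrophage arrays most detected collagens lay lower in the mice labelled Irgm1-/- than in WT mice, across fibrillar, basement membrane and type VI genes alike. None of the 33 detected genes passed the test across all genes (limma, Benjamini-Hochberg adjusted p under 0.05), which called 0.138% of all 21085 genes tested. At an unadjusted p under 0.05, 21 of the 33 lay lower and 0 higher, beside 6.52% of all genes lower. The groups did not overlap, with every Irgm1-/- array below every WT array, for 19 of the 33, beside 7.9% of all genes, and Col11a2 was the only member whose groups were apart in the other direction (0.27). The median log2 difference, Irgm1-/- minus WT, was -1.32 over the collagens and 0.10 over all genes tested, and single genes ran from -2.57 to 0.31. Within the slide that held 2 mice of each genotype the median was -1.35, and within the other, with 1 of each, it was -1.2.

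The labels number the mice of each genotype but state no pairing. In this tissue and in small intestine, mice of the same number had the same age, lay on the same slide and deviated together. Their number was therefore also fitted as a replicate block, a choice that rests on these same data. With that replicate block in the fit, 16 of the 33 collagens passed in macrophages, all lower, beside 4.02% of all genes called lower. In a fit of all 20 arrays together, which shares 1 estimate of the spread over the tissues, 14 passed, all lower. The share of all genes called in that fit is not given here, so the 14 cannot be set against it. With normexp background correction or with arrays set to their medians only Col12a1 passed. The paired adjusted p is given beside each value below where it passes, and for types I and VI also where it does not.

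**Figure D1:**
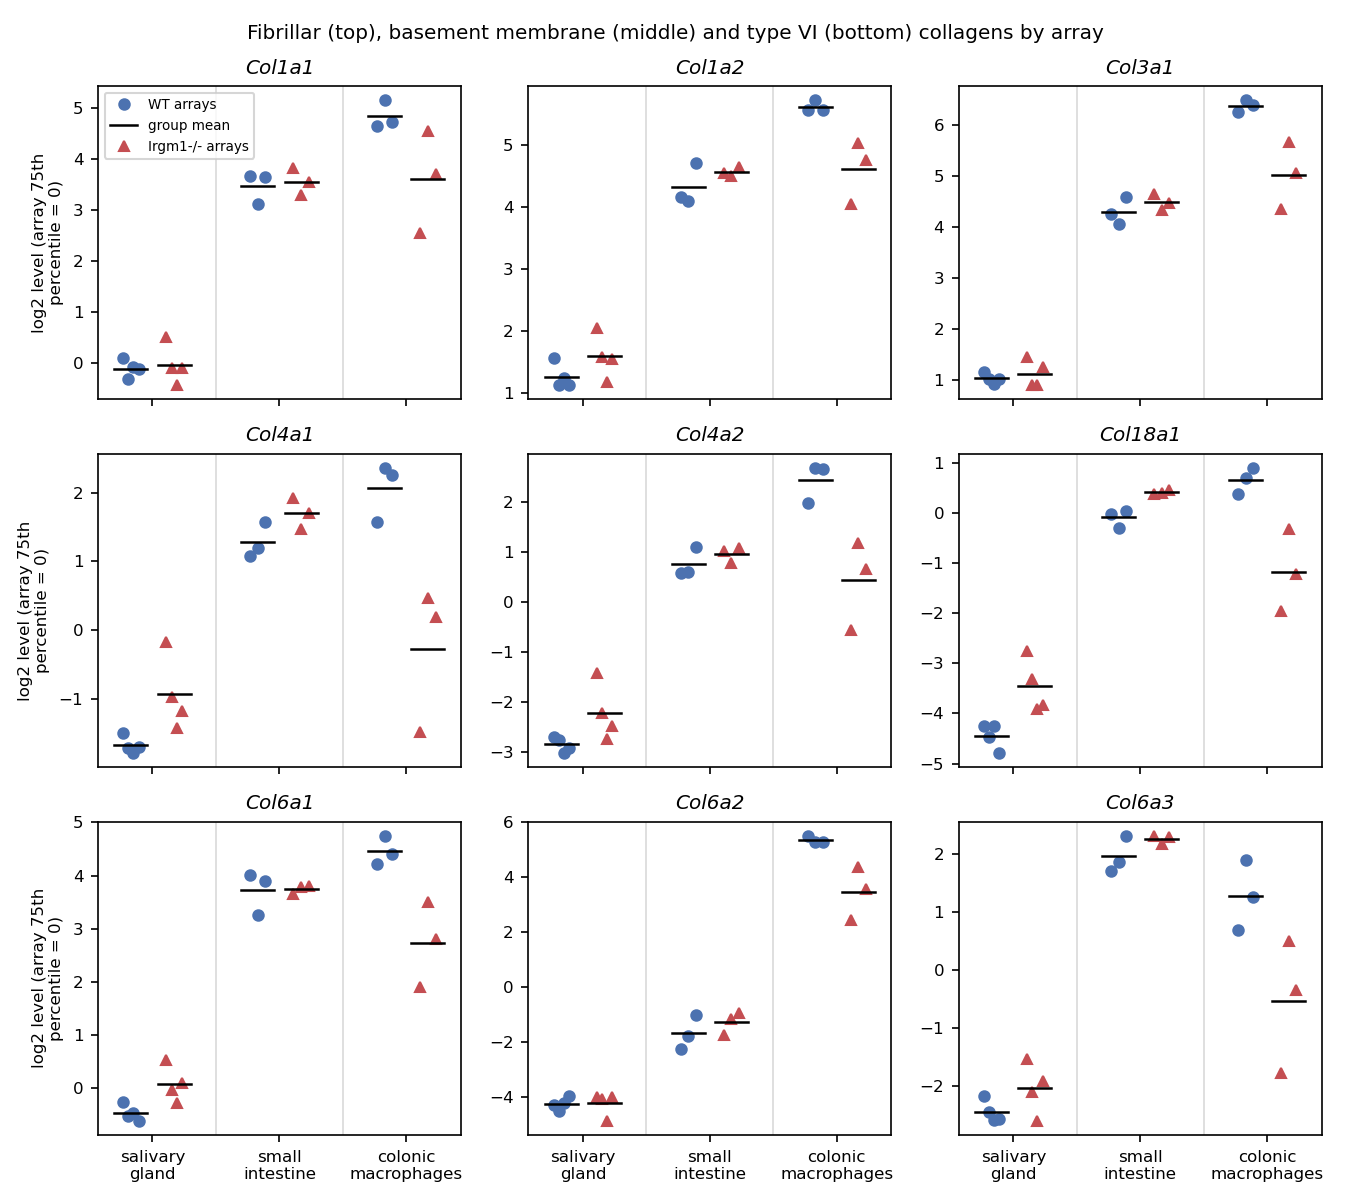
Levels (log2, array 75th percentile = 0) of 9 collagen genes by array, with WT mice as circles, mice labelled Irgm1-/- as triangles and group means as bars. Every Irgm1-/- macrophage array lies below every WT macrophage array in all 9 panels; salivary gland is scaled to another set of probes, so heights are compared within a tissue only.

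Col1a1 encodes the main chain of type I collagen. Its levels in macrophages were 2.55, 4.55 and 3.71 in Irgm1-/- mice 1, 2 and 3 and 4.65, 5.15 and 4.73 in the WT mice of the same numbers. Col1a2, the partner chain, stood at 4.05, 5.04 and 4.76 against 5.57, 5.73 and 5.57. Col3a1, the chain of type III collagen, stood at 4.36, 5.67 and 5.06 against 6.26, 6.49 and 6.40. In all 3 genes mouse 1 of the Irgm1-/- group was lowest and mouse 2 came nearest to the WT arrays without reaching them. The log2 difference was -1.24 for Col1a1 (SE 0.47, n = 3 per group, limma adjusted p = 0.373, and 0.0846 with the replicate block). It was -1.01 for Col1a2 (SE 0.31, 0.222 and 0.066) and -1.35 for Col3a1 (SE 0.35, 0.16 and 0.0382). The type V chains, which nucleate type I fibrils, differed by -1.90 (Col5a1, paired adjusted p = 0.032), -1.75 (Col5a2) and -2.32 (Col5a3, paired adjusted p = 0.0289). Col27a1 differed by -2.01 (SE 0.47, paired adjusted p = 0.0176). Of the 8 detected fibrillar genes, 7 lay lower at an unadjusted p under 0.05, and their median was -1.55.

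Of the basement membrane collagens, 4 of 8 had groups apart. Col4a1 levels were -1.48, 0.47 and 0.19 in the Irgm1-/- mice against 1.57, 2.36 and 2.26 in the WT mice. Col4a2 levels were -0.55, 1.19 and 0.67 against 1.99, 2.69 and 2.67. Col18a1, which encodes the precursor of endostatin, stood at -1.96, -0.32 and -1.22 against 0.39, 0.71 and 0.90. Again the groups did not overlap in any of these 3, and mouse 1 was lowest. The log2 differences were -2.34 for Col4a1 (SE 0.51, limma adjusted p = 0.124, and 0.0189 with the replicate block), -2.01 for Col4a2 (SE 0.45, 0.128 and 0.019) and -1.83 for Col18a1 (SE 0.41, 0.128 and 0.0276). Col15a1 stood at -2.35, -0.71 and -1.04 against 0.18, 1.11 and 0.58. It differed by -1.99 (SE 0.45, paired adjusted p = 0.019), and by -1.98 at the probe printed above and -2.33 at a further one. Col4a5 differed by -1.52 (SE 0.52, paired adjusted p = 0.0232), with overlapping groups and a probe well above background on 1 Irgm1-/- and 2 WT arrays.

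Not every type IV chain followed. Col4a3 levels were -0.47, -0.70 and -0.07 in the Irgm1-/- mice and -0.78, -1.0 and -0.24 in the WT mice, a difference of 0.26 (SE 0.30) with groups that overlap. Col4a4, its partner chain in specialised epithelial basement membranes, differed by 0.20 (SE 0.42) in a fit that drops WT mouse 3, whose spot was marked as an outlier, and its other 2 probes by -0.69 and 0.00. Col4a6 differed by -0.68 with overlapping groups, and by -2.64 at its other probe, which was well above background on 2 of the 6 arrays. Over the 8 basement membrane genes the median was -1.68, and 5 lay lower at an unadjusted p under 0.05.

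All 4 type VI genes detected in macrophages lay lower with groups apart. Col6a1 stood at 1.91, 3.51 and 2.80 in the Irgm1-/- mice against 4.21, 4.75 and 4.41 in the WT mice. Col6a2 stood at 2.44, 4.36 and 3.56 against 5.49, 5.28 and 5.27. Col6a3, the longest of the chains, stood at -1.78, 0.51 and -0.35 against 0.69, 1.90 and 1.27. The WT mice lay within a narrow range for Col6a2, while the Irgm1-/- mice were spread, with mouse 1 lowest in all 3 genes. The log2 differences were -1.72 (SE 0.40, limma adjusted p = 0.138, and 0.0231 with the replicate block), -1.90 (SE 0.45, 0.138 and 0.0521) and -1.83 (SE 0.57, 0.237 and 0.0216). Col6a4 stood at -2.85, -2.75 and -2.32 against -1.61, -1.19 and -1.15, again apart. Its difference was -1.32 (SE 0.27, adjusted p = 0.12, paired 0.0224), and -2.33 at its other probe.

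The smallest p of any collagen was that of Col12a1, a fibril-associated collagen of tendon and fascia. Its levels were -5.07, -3.71 and -3.97 in the Irgm1-/- mice, well above background on 1 of these 3 arrays, and -2.44, -1.01 and -1.61 in the WT mice. The groups did not overlap and differed by -2.57 (SE 0.46, limma adjusted p = 0.0949, and 0.0115 with the replicate block). The gene's other probe differed by -0.64. In this tissue that probe was the brighter one, with means of 0.16 in WT and -0.48 in Irgm1-/- mice. It was well above background on all 6 macrophage arrays. The probe used, chosen as the brightest on average, had means of -1.68 and -4.25 here and was well above background on 4. The size of the Col12a1 difference thus rests on the probe that was dimmer in macrophages. Col14a1 (-1.83, paired adjusted p = 0.0253) and Col16a1 (-1.35, paired adjusted p = 0.02), of the same class, lay lower too. Col9a1, Col9a2, Col19a1 and Col20a1 overlapped between the groups, with differences of 0.31, 0.04, 0.19 and -0.40. Of the remaining types, Col8a1, a network-forming collagen of vessel walls, differed by -1.25 (paired adjusted p = 0.0216) and Col7a1, the anchoring fibril collagen, by -0.82. The others were Col8a2 (-0.75), Col28a1 (0.07) and the transmembrane Col23a1 (-0.20) and Col25a1 (0.23), whose groups overlapped.

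**Figure D2:**
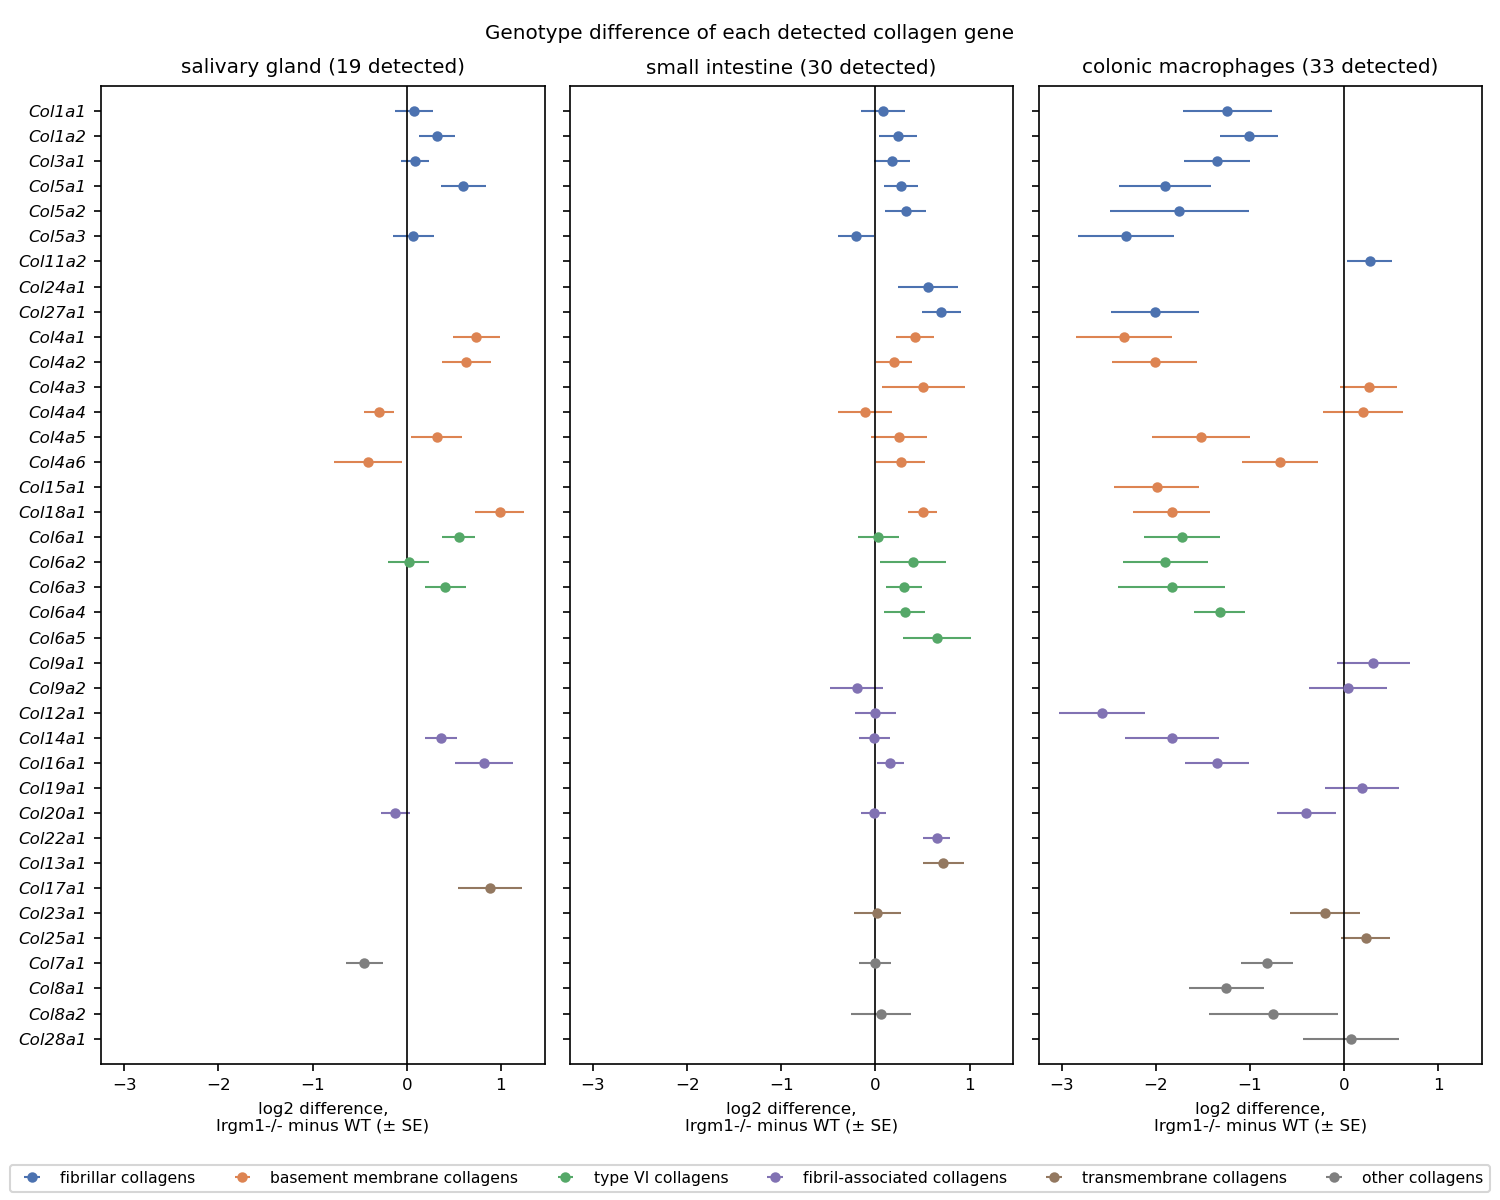
Log2 difference of each detected collagen gene, Irgm1-/- minus WT, with its standard error from limma, by tissue and coloured by collagen type. In macrophages 25 of the 33 genes lie below 0, while 15 of 19 in salivary gland and 23 of 30 in small intestine lie above 0. Of all genes tested, 8098 of 21085 lay below 0 in macrophages. Above 0 lay 6762 of 12168 in salivary gland and 6738 of 17979 in small intestine.

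Genes of the collagen pathway were read from lists chosen by function. In macrophages none of the members passed the test, and most lay lower. Of the genes that modify and fold collagen chains, 10 of 15 had an unadjusted p under 0.05 and lay lower (median -1.38). Plod1, a lysyl hydroxylase (-1.59, SE 0.28, limma adjusted p = 0.0896), and P3h3 (-1.83, adjusted p = 0.121) had the smallest p. Of those that process and cross-link collagen, 10 of 13 lay lower (median -1.62), with Loxl4, a lysyl oxidase (-1.91, SE 0.30, adjusted p = 0.072), and Pcolce, the procollagen C-proteinase enhancer (-1.69, adjusted p = 0.156). Of those that break collagen down or inhibit that, 10 of 12 lay lower (median -1.85), with Mrc2, a receptor that takes up collagen (-2.14, adjusted p = 0.072), and Timp3 (-1.43, adjusted p = 0.118).

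The other matrix lists are counted in the same way, as members lower at an unadjusted p under 0.05 (6.52% of all genes). Fibril and elastic matrix genes lay lower in 12 of 15 (median -1.79), with Tnc (-2.58, adjusted p = 0.0923) and Vcan (-2.18, adjusted p = 0.093). Laminins and other basement membrane proteins lay lower in 6 of 14 (median -1.06), with Hspg2, the perlecan gene (-1.85, adjusted p = 0.0949), and Lamb2 (-1.82, adjusted p = 0.107). Collagen receptors lay lower in 2 of 8 (median -0.32), Itga11 (-2.12) and Ddr2 (-2.05), with 5 of 8 below 0. TGF-beta ligands and targets lay lower in 5 of 12 (median -0.86), with Tgfbi (-2.09, adjusted p = 0.122) and Ltbp1 (-1.84). All these medians stand beside 0.10 over all genes tested, and each gene named from these lists passed with the replicate block, at adjusted p from 0.0155 (Tnc) to 0.0344 (P3h3).

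Markers of stromal and vascular cells lay lower on the same arrays, and some markers of macrophages too. Of the fibroblast markers, 10 of 12 lay lower at an unadjusted p under 0.05 (median -1.43), among them Pdgfra (-2.04, paired adjusted p = 0.0184). Of the smooth muscle markers, 8 of 9 lay lower (median -1.19), with Acta2 at -2.72 (limma adjusted p = 0.0671) and Myh11 at -2.97 (adjusted p = 0.072). Pericyte markers had a median of -1.55 over 3 detected genes. Among endothelial markers Egfl7 passed the test, lower in Irgm1-/- mice by a log2 difference of -1.99 (limma adjusted p = 0.0332, SE 0.25) and the median was -1.02. Macrophage markers had a median of -1.23 over 11 tested genes, each with overlapping groups, among them Cd163 (-1.99, adjusted p = 0.328) and Cx3cr1 (-1.49, adjusted p = 0.392), which passed with the replicate block (0.0391 and 0.0345). Epithelial markers lay above 0 in 10 of 10 (median 0.58), beside 12986 of all 21085 genes, with Cdh1 at 1.13 (adjusted p = 0.398, paired 0.0295). Glial and neuronal markers had a median of -0.27 over 5 genes, cartilage and bone markers one of -0.13 over 7, enterocyte markers one of -0.20 over 4 and salivary acinar markers one of 0.08 over 6. The part of cell makeup in the collagen differences was not tested.

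Per array, the mean level of the 6 fibrillar genes detected on every macrophage array was 0.94, 2.57 and 2.0 in the Irgm1-/- mice and 3.23, 3.77 and 3.43 in the WT mice. The mean of the fibroblast markers was 0.49, 1.70 and 1.37 against 2.09, 2.56 and 2.42. Both means had the same order of mice within each genotype, with no overlap between the genotypes. The fibrillar mean minus the fibroblast marker mean was 0.45, 0.87 and 0.63 against 1.14, 1.21 and 1.0, so the distance between the 2 means was also smaller in each Irgm1-/- mouse. The smooth muscle mean was -1.14, -0.52 and -0.33 against 0.85, 0.56 and 1.12, again without overlap. The macrophage marker mean, at -0.16, 0.38 and 0.61 against 0.26, 1.22 and 0.94, overlapped between the groups but was lower in Irgm1-/- within each pair of same-numbered mice, by -0.42, -0.84 and -0.33. The epithelial mean, at 4.22, 3.75 and 3.06 against 3.90, 2.76 and 2.57, overlapped too and was higher within each pair, by 0.32, 0.99 and 0.49. On these arrays labelled as macrophages, 11 of 12 macrophage markers were detected, and so were 10 of 10 epithelial and 12 of 12 fibroblast markers. Of other lists, 9 of 10 endothelial, 9 of 10 smooth muscle, 5 of 8 glial and neuronal and 4 of 8 enterocyte markers were detected. The markers well above background on none of these arrays were Cdh5, Lmod1, Uchl1 and the enterocyte genes Fabp1, Sis and Lct.

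**Figure D3:**
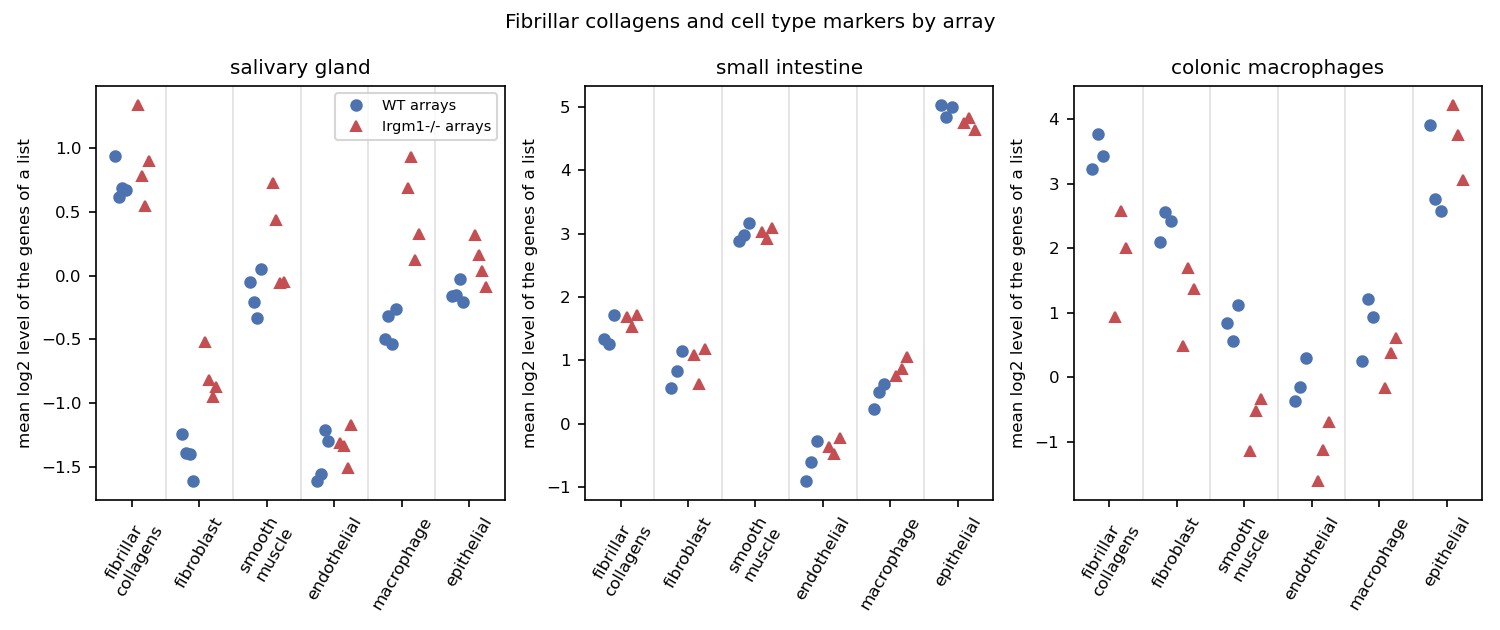
Mean log2 level per array of the fibrillar collagens and of 5 marker lists, over genes detected on every array of the tissue, with WT mice as circles and mice labelled Irgm1-/- as triangles. On macrophage arrays the fibrillar, fibroblast, smooth muscle and endothelial means of the genotypes lie apart, with Irgm1-/- below; with Irgm1-/- above, the fibroblast and macrophage means lie apart in salivary gland and the macrophage mean in small intestine, where the epithelial mean lies apart with Irgm1-/- below.

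Sex differs between the genotypes in macrophages and small intestine. With sex as a covariate, which rests on 1 female labelled Irgm1-/-, the median over the 33 collagens in macrophages was -1.14. Members lay both lower and higher at an unadjusted p under 0.05 in that fit. Without Irgm1-/- mouse 1, the lowest of its group for most members, the median was -0.99. The medians of all genes in these fits are not given here.

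In salivary gland no collagen passed the test either, and the differences leaned the other way. limma called 0 of 19 (3.39% of all 12168 genes tested), 7 lay higher at an unadjusted p under 0.05 (15.4% of all genes), and the groups were apart with Irgm1-/- above for 3 genes (11.5% of all genes). The last of these shares, 3 of 19, is near that of all genes. The median was 0.32 over the collagens and 0.04 over all genes tested.

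The type I and III chains were not separated by genotype in salivary gland. Col1a1 levels were 0.52, -0.10, -0.43 and -0.09 in Irgm1-/- mice 1 to 4 and 0.10, -0.31, -0.08 and -0.12 in WT mice 1 to 4. Col1a2 levels were 2.05, 1.57, 1.18 and 1.54 against 1.56, 1.13, 1.23 and 1.12. Col3a1 levels were 1.44, 0.89, 0.89 and 1.25 against 1.15, 1.02, 0.92 and 1.01. The groups overlapped in all 3, with Irgm1-/- mouse 1, whose array was also the brightest, highest in each. The differences were 0.08 (SE 0.20, n = 4 per group, limma adjusted p = 0.836), 0.32 (SE 0.19, adjusted p = 0.345) and 0.09 (SE 0.15, adjusted p = 0.732). Over the 5 detected fibrillar genes the median was 0.09, with Col5a1 at 0.60 and Col5a3 at 0.07.

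Basement membrane collagens stood further from 0. Col18a1 had the smallest p, at -2.76, -3.31, -3.92 and -3.84 in the Irgm1-/- mice against -4.25, -4.47, -4.26 and -4.79 in the WT mice. Col4a1 stood at -0.18, -0.97, -1.42 and -1.18 against -1.50, -1.72, -1.79 and -1.70. Col4a2 stood at -1.41, -2.22, -2.74 and -2.48 against -2.70, -2.76, -3.02 and -2.91. The groups were apart for Col18a1 and Col4a1 and overlapped by 1 array for Col4a2. The difference was 0.99 for Col18a1 (SE 0.26, limma adjusted p = 0.0843, and 0.0355 with the slide as a block), 1.33 within slide 1 and 0.65 within slide 2. It was 0.74 for Col4a1 (SE 0.25, adjusted p = 0.141) and 0.63 for Col4a2 (adjusted p = 0.208). Col4a4 (-0.29), Col4a5 (0.32) and Col4a6 (-0.41) overlapped. Col4a1 and Col4a2, whose starts lie head to head, thus had differences of the same sign. Col4a5 and Col4a6, the other such pair, had opposite signs in this tissue, with overlapping groups. The other Col4a6 probe, well above background on 1 salivary array, differed by 1.32, the same sign as Col4a5. Col4a5 and Col4a6 also shared a sign in small intestine (0.25 and 0.27) and in macrophages (-1.52 and -0.68). A part of the start regions in these values was not tested.

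Type VI was mixed in this tissue. Col6a1 stood at 0.53, -0.03, -0.28 and 0.10 in the Irgm1-/- mice against -0.26, -0.52, -0.47 and -0.61 in the WT mice, apart but for 1 array, with a difference of 0.55 (SE 0.18, limma adjusted p = 0.135). Col6a2 stood at -3.99, -4.05, -4.85 and -3.97 against -4.27, -4.49, -4.21 and -3.94 and did not separate (0.02). Col6a3 stood at -1.54, -2.10, -2.60 and -1.91 against -2.18, -2.44, -2.59 and -2.57 (0.41, adjusted p = 0.305). The remaining detected members were Col14a1 (0.36, groups apart, and -0.18 at its other probe), Col16a1 (0.82), Col20a1 (-0.12), Col17a1, the collagen of hemidesmosomes (0.88), and Col7a1 (-0.45). Col17a1 was detected in salivary gland only, and none of these passed.

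Other matrix lists leaned upward in salivary gland with no member called, beside 15.4% of all genes higher at an unadjusted p under 0.05. Laminins and basement membrane proteins lay higher in 9 of 13 at that threshold (median 0.60), with Agrn at 1.2 (limma adjusted p = 0.0566) and Lama4 at 0.80 (adjusted p = 0.0583). TGF-beta ligands and targets lay higher in 5 of 7 once Tgfb1 and Tgfbr1, well above background on no WT array and so bound to lie higher, are set aside, and in 7 of 9 with them. Tgfbi stood at 1.19 (adjusted p = 0.0514), and Tgfb1 was at least 1.03-fold higher. Genes of collagen breakdown lay higher in 4 of 8 (median 0.44), or 3 of 6 without those well above background on no WT array, with Timp3 at 0.96 and Mmp2 at 0.58. Chain modification (2 of 12 higher, median 0.03) and fibril and elastic matrix genes (4 of 12, or 3 of 11 on the same terms, median 0.14) had medians nearer 0, as did the fibrillar genes. Processing and cross-linking (3 of 7 higher, median 0.35) and receptors (2 of 4, median 0.45) lay between.

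Several cell type markers differed by genotype in salivary gland. Of those of macrophages 5 of 10 rose, beside 378 of all 12168 genes, among them C1qa (1.67) and C1qc (1.55). Fcgr1, also among the 5, was well above background on no WT array and so had to lie higher (at least 1.23-fold). Without it, 7 of 9 macrophage markers lay higher at an unadjusted p under 0.05, beside 15.4% of all genes. Of the fibroblast markers 1 of 11 rose, Ly6a (2.77, SE 0.22, n = 4 per group, limma adjusted p = 0.000447), which interferons also induce, and the median was 0.33. Lpo, an acinar cell gene, fell by 0.59 on the log2 scale (adjusted p = 0.0441), the epithelial Elf3 rose (0.71, adjusted p = 0.0194) and the bone gene Bglap fell by 0.71 (adjusted p = 0.0268). Of all genes tested, 6762 lay above 0, and 11.5% had groups apart with Irgm1-/- above. All 11 fibroblast markers tested lay above 0, 5 at an unadjusted p under 0.05 and 4 with groups apart. Among them were Cd34 (0.71, adjusted p = 0.0516) and Thy1 (0.93, adjusted p = 0.0575), while Dcn (0.18) and Lum (0.15) overlapped. Endothelial markers had groups apart for 3 of 6 (median 0.39), with Egfl7 at 0.80 (adjusted p = 0.0665). Pericyte markers had a median of 0.53 and smooth muscle markers one of 0.34, with 7 of 7 above 0. The part of these cells in the collagen values was not tested. Age differs between the genotypes here (9 against 6 and 7 weeks), so age and genotype cannot be told apart.

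In small intestine few collagens were separated by genotype. limma called 0 of 30 (0.145% of all 17979 genes tested), 4 lay higher at an unadjusted p under 0.05 (3.04% of all genes), and the same 4 had groups apart with Irgm1-/- above (5.38% of all genes). Of these 4, Col13a1 and Col22a1 were well above background on no WT array and so had to lie higher; without such genes the count is 2 of 27, Col18a1 and Col27a1. The median was 0.24, beside -0.10 over all genes tested, and it was -0.04 after normexp background correction. With sex as a covariate 0 of the 30 had an unadjusted p under 0.05.

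Fibrillar genes overlapped in small intestine. Col1a1 levels were 3.82, 3.29 and 3.54 in the Irgm1-/- mice and 3.67, 3.11 and 3.65 in the WT mice. Col1a2 levels were 4.55, 4.51 and 4.65 against 4.17, 4.10 and 4.72, and Col3a1 levels 4.65, 4.34 and 4.47 against 4.26, 4.06 and 4.59. WT mouse 3 lay above every Irgm1-/- mouse for Col1a2 and among them for Col1a1 and Col3a1, and the differences were 0.08 (SE 0.23), 0.24 (SE 0.20) and 0.18 (SE 0.19). Col27a1, a fibrillar collagen of growing cartilage, was apart, at -2.06, -2.13 and -1.95 against -3.15, -2.69 and -2.42 (0.70, SE 0.21, n = 3 per group, limma adjusted p = 0.646).

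Among basement membrane genes Col18a1 stood at 0.38, 0.40 and 0.47 in the Irgm1-/- mice against -0.02, -0.29 and 0.05 in the WT mice (0.50, SE 0.15, limma adjusted p = 0.646), with groups apart as in salivary gland. Col4a1 stood at 1.93, 1.47 and 1.71 against 1.08, 1.2 and 1.57 (0.42, SE 0.20). Col4a2 stood at 1.02, 0.79 and 1.08 against 0.59, 0.61 and 1.10 (0.20, SE 0.19). The last 2 overlapped through WT mouse 3. Type VI genes overlapped as well. Col6a1 stood at 3.66, 3.79 and 3.80 against 4.01, 3.26 and 3.90. Col6a2 stood at -1.72, -1.17 and -0.95 against -2.24, -1.77 and -1.03. Col6a3 stood at 2.31, 2.18 and 2.30 against 1.72, 1.86 and 2.32. Their differences were 0.03, 0.40 and 0.30, and the lowest array was a WT one in each.

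The smallest p in small intestine belonged to Col22a1, a collagen of tissue junctions, at -5.09, -4.86 and -5.10 against -5.67, -5.67 and -5.65 (0.65, SE 0.14, limma adjusted p = 0.369). Like it, Col13a1 (at least 1.25-fold higher) and Col5a2 (at least 1.23-fold) entered the test only through the Irgm1-/- arrays. These bounds set the Irgm1-/- mean against the lowest signal well above background on each WT array, or the probe's own where that was higher. For Col22a1 the Irgm1-/- mean did not exceed that level, so no such bound could be set and the size of its difference is not settled. None of the matrix lists had a member called in this tissue. Mmp9, a gelatinase (-1.75, adjusted p = 0.249), Mfap4 (0.84, adjusted p = 0.565) and Lama1 (0.45, adjusted p = 0.646) had the smallest p of their lists, and list medians lay between -0.05 and 0.21. Macrophage markers lay higher in 6 of 11 at an unadjusted p under 0.05 (median 0.42), beside 3.04% of all genes. The medians of fibroblast, smooth muscle and endothelial markers were 0.17, -0.11 and 0.26. Most genes leaned down in this tissue: of all 17979 tested, 11241 lay below 0 (median -0.10). Of all genes, 703 lay lower at an unadjusted p under 0.05 and 2285 had groups apart with Irgm1-/- below. Epithelial markers lay below 0 in 9 of 10 (median -0.31), 4 of them with groups apart. Enterocyte markers lay below 0 in 7 of 8 (median -0.37), 3 of them at an unadjusted p under 0.05 and 4 with groups apart. The part of these cells in the collagen values was not tested.

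Whether the genotype difference itself differs between tissues was tested as an interaction in a fit of all 20 arrays. That fit shares 1 estimate of the spread over the tissues. For Col4a1 the SD was 1.05 in Irgm1-/- macrophages, against 0.54 (Irgm1-/-) and 0.12 (WT) in salivary gland. Its SE in this test against salivary gland, 0.51, was no larger than its SE in macrophages alone, 0.51. The interaction p can therefore be too small for members whose spread is wider in macrophages. Of the 18 collagens detected in both, 12 had a higher genotype difference in salivary gland than in macrophages, beside 7.09% of all 11489 genes tested, and 14 at an unadjusted p under 0.05 (12.2% of all genes). The median of these differences of differences was 2.04, beside -0.07 over all genes. Ranked by p, Col18a1 led at 2.82 (SE 0.44, limma adjusted p = 0.000579), from 0.99 in salivary gland and -1.83 in macrophages. Col4a1 followed at 3.08 (SE 0.51, adjusted p = 0.000856), and Col6a1 (2.27), Col4a2 (2.65), Col16a1 (2.17), Col5a1 (2.50), Col5a3 (2.39) and Col14a1 (2.19) passed as well. Col3a1 (1.45, adjusted p = 0.00822), Col1a2 (1.33, 0.013), Col6a3 (2.23, 0.0135) and Col6a2 (1.91, 0.0225) completed the 12. Col1a1 did not pass (1.32, adjusted p = 0.105), nor did Col4a5 (1.84, 0.0549). The count was 11 to 13 when any single array was left out. Age differs between the genotypes in salivary gland and sex in macrophages, so neither can be told apart from genotype in this comparison. Salivary gland and macrophages are also scaled over different sets of probes.

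Between small intestine and macrophages the same test called 6 of 26, beside 1.2% of all 15915 genes higher, and 18 at an unadjusted p under 0.05 (7.15% of all genes), with a median of 1.69 against -0.19. The 6 were Col4a1 (2.76, SE 0.56, limma adjusted p = 0.0268), Col18a1 (2.34, 0.0269), Col27a1 (2.72, 0.0434), Col3a1 (1.54, 0.0438), Col4a2 (2.21, 0.0445) and Col6a2 (2.29, 0.0495). These p lie close to the threshold. The count was 0 without any of small intestine Irgm1-/- mice 1, 2 or 3, small intestine WT mice 1 or 2 or macrophage WT mouse 3. It was 1 without macrophage Irgm1-/- mouse 1, 2 without macrophage WT mouse 2 or salivary gland WT mouse 2, 3 or 4, and 3 without salivary gland Irgm1-/- mouse 2 or 4 or WT mouse 1. It rose to 13 without macrophage Irgm1-/- mouse 2 and 12 without macrophage WT mouse 1. With the shared animals as a replicate block it was 10. Salivary gland and small intestine did not differ in this test, with 0 of 18 called (limma, 0.905% of all 11607 genes) and 0 at an unadjusted p under 0.05 (12.3% of all genes).

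The comparisons that involve macrophages share those arrays, so they are not independent of each other. Fibroblast markers in the same test had 10 of 11 higher in salivary gland than in macrophages (median 2.09) and 1 of 12 in small intestine (median 1.27). Of all genes 7.09% and 1.2% were called higher in these comparisons. Macrophage markers had 5 of 9 higher in salivary gland (median 1.98) and 0 of 10 in small intestine (median 1.14). Epithelial markers had 0 of 9 and 0 of 10 called by limma in either direction (medians -0.34 and -0.87). At an unadjusted p under 0.05, 0 and 0 of them were higher. At that threshold 4 of the 10 had a lower genotype difference in small intestine than in macrophages, beside 1628 of all 15915 genes.

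**Figure D4:**
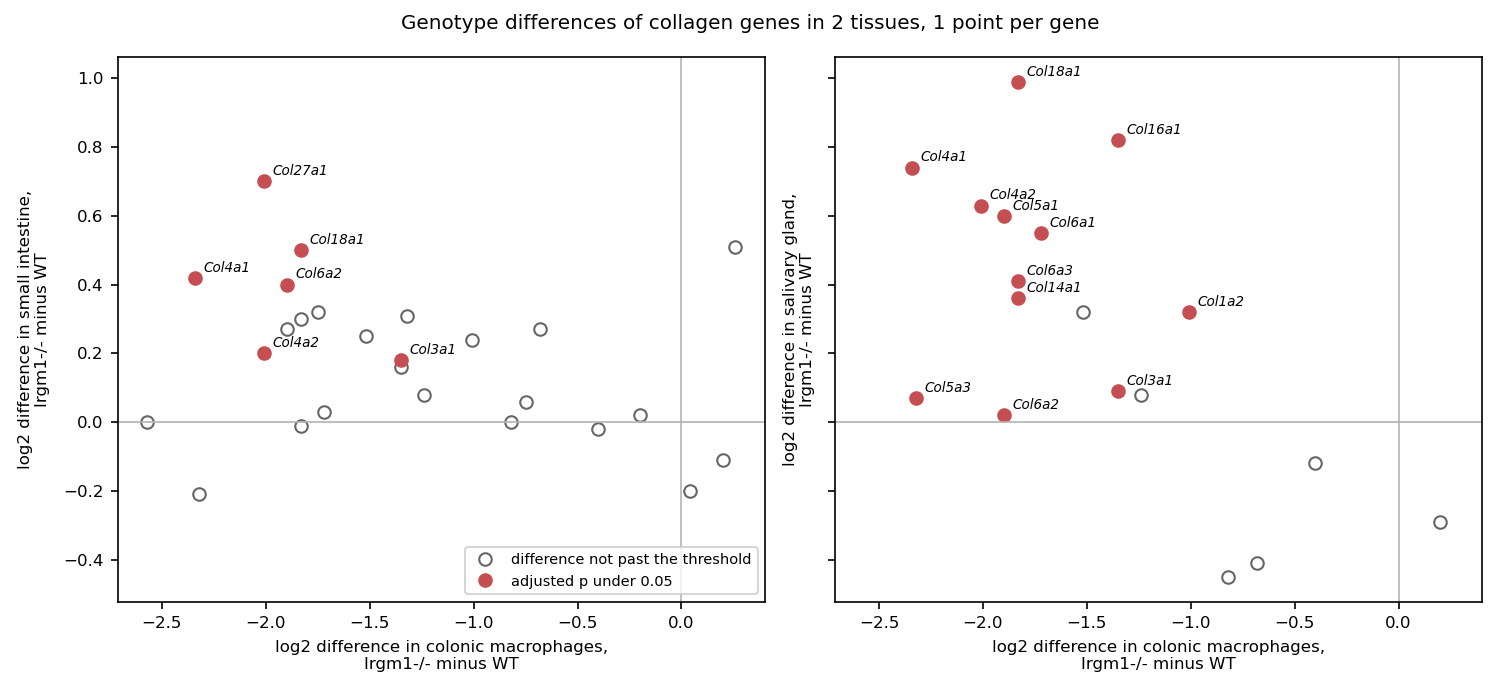
Genotype difference (log2, Irgm1-/- minus WT) in small intestine (left) and salivary gland (right) against that in colonic macrophages, 1 point per collagen gene detected in both, filled where the difference between the tissues passed (adjusted p under 0.05). The 6 and 12 filled points lie at or above 0 on the vertical axis and below -1 on the horizontal axis.

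Between tissues, WT arrays were compared on a common scale, the percentile taken over probes detected on all 20 arrays. Most collagens were higher in the macrophage preparation than in either whole tissue. Small intestine lay below macrophages for 31 of 37 tested genes (57% of all 23149 genes lay below) and above for 1. Because the scale itself shifts the median of all genes by -1.35, the collagen median of -2.66 is 1.31 lower than that of all genes. Salivary gland lay below macrophages for 29 of 34 (55.7% of all genes), with a median of -2.14, or 1.04 lower than all genes (-1.10). The split of calls depends on the scaling: with arrays set to their medians it was 9 higher and 15 lower for small intestine and 6 and 14 for salivary gland, and with quantile normalization 7 and 24 for small intestine. Relative to all genes the collagen median stayed below 0 in both comparisons under each of these scalings, normexp and the percentile over all probes included. Between the arrays labelled Irgm1-/- it was 0.07 for small intestine and -0.14 for salivary gland. Tissue and scan day cannot be told apart, and a probe not well above background on the WT arrays of 1 tissue has only a bound there.

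Col6a2 differed widely between macrophages and both whole tissues, by an amount that depends on the probe. On the common scale its WT levels were 2.94, 2.91 and 2.95 in macrophages, -5.85, -5.04 and -4.32 in small intestine and -4.38, -4.61, -4.33 and -4.04 in salivary gland. Small intestine was lower by a log2 difference of -8.00 (SE 0.44, 257-fold, limma adjusted p = 4.29e-11), and salivary gland by -7.27 (155-fold). Its other probe differed by -3.58 and -3.19, with no salivary WT array well above background. Its partner chains Col6a1 (-1.71, and 0.83 with median scaling) and Col6a3 (-0.30, adjusted p = 0.57, and 2.24 with median scaling) did not share that size in small intestine. Col3a1 levels were 3.71, 4.12 and 4.09 in macrophages, 0.65, 0.78 and 1.29 in small intestine and 1.05, 0.90, 0.80 and 0.92 in salivary gland. No WT macrophage array overlapped another tissue for Col3a1, and the difference was -3.06 against either tissue. Col1a1 differed by -2.35 in small intestine and -2.64 in salivary gland, and Col1a2 by -2.27 and -2.06, of which the intestinal values turned to 0.19 and 0.27 with median scaling. Col15a1 was not detected in either whole tissue and was at least 87-fold and at least 7.26-fold lower there.

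Some members ran the other way. Col4a5 was higher in small intestine than in macrophages (1.38, adjusted p = 0.0177) and in salivary gland (1.63). Col17a1 was at least 4.14-fold higher in salivary gland than in macrophages, where it was not detected, and Col4a6 (1.06) and Col20a1 (0.94) were higher there at their brightest probes. The other probe of each, well above background on no WT salivary array, ran the other way (-0.89 and -1.60). Between salivary gland and small intestine 10 genes lay higher and 8 lower of 31 (33.7% and 36.1% of all 18540 genes), with a median of 0.25 against -0.04, and that split turned to 7 and 13 with median scaling, 6 and 10 with quantile normalization, 15 and 2 with normexp and 13 and 8 with the percentile over all probes. Of the 10, Col4a3, Col9a2, Col13a1, Col22a1 and Col24a1 were well above background on no WT salivary array, so their direction is not settled here. Col7a1 had the smallest p, at -2.16, -2.81, -2.86 and -3.00 in salivary gland and -6.94, -6.64 and -6.65 in small intestine (4.04, SE 0.23, 16.4-fold, limma adjusted p = 1.01e-10). Col4a6 (4.6), Col4a4 (3.29) and Col20a1 (2.65) were higher in salivary gland, and Col14a1 lower (-2.03). The other probe turned the direction for Col4a6 (-1.01) and Col14a1 (1.35), but not for Col20a1 (1.43) or, at both further probes, Col4a4 (3.74 and 4.0). Fibrillar types I and III did not pass between the whole tissues (Col1a1 -0.30, Col1a2 0.21, Col3a1 0.01, SE 0.27 to 0.37), though Col3a1 turned to -0.83 with median scaling.

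**Figure D5:**
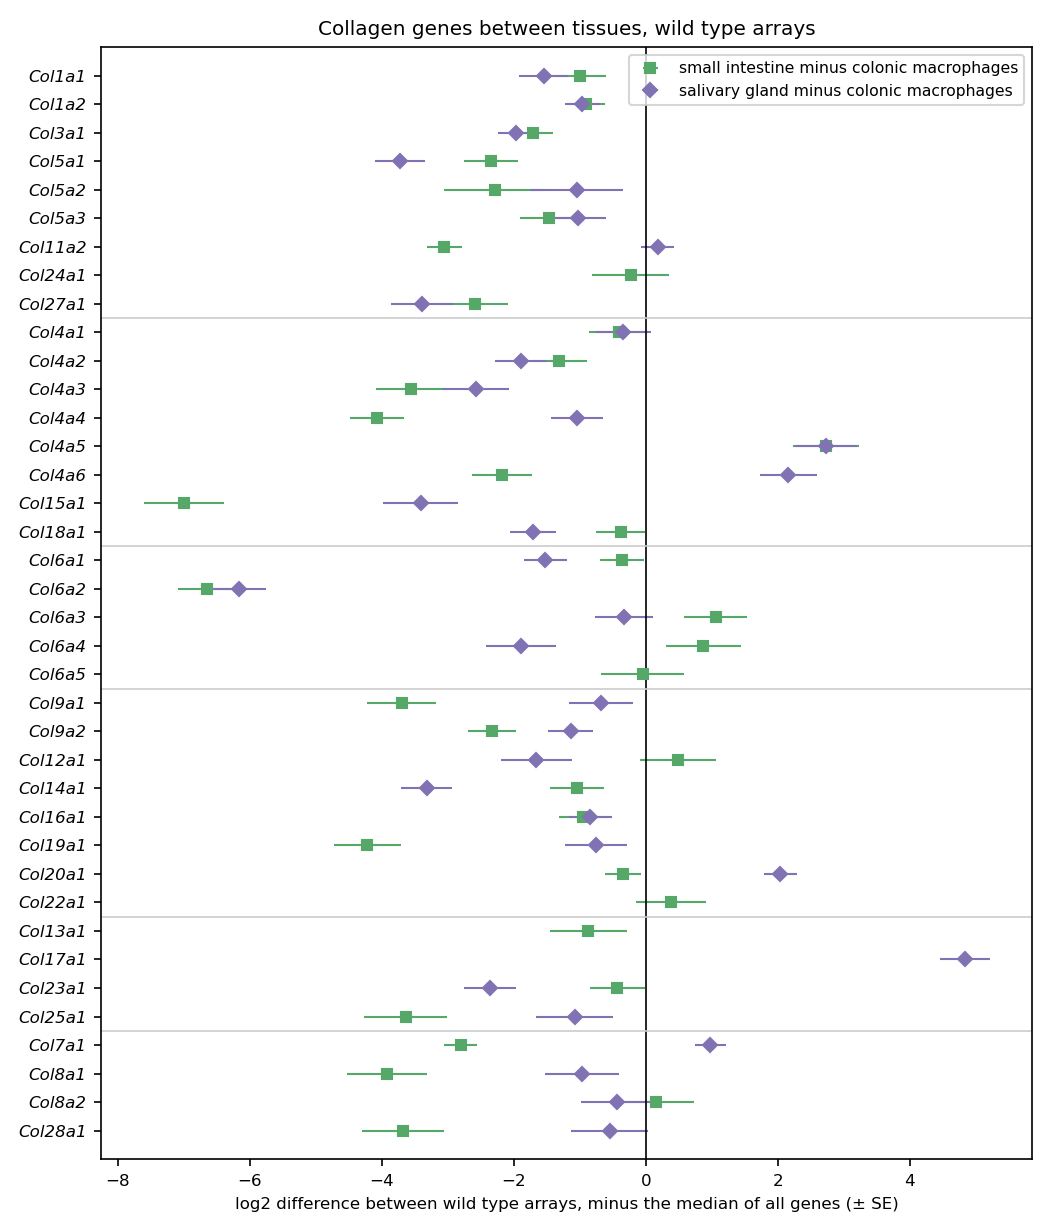
Log2 difference of each collagen gene between WT arrays of a whole tissue and WT macrophage arrays, with its standard error, after the median of all genes was taken off (-1.35 for small intestine, squares, and -1.10 for salivary gland, diamonds). Fibrillar genes lie below 0 but for Col11a2 in salivary gland, Col15a1 and Col6a2 lie furthest below for small intestine, and Col17a1 and Col4a5 lie above 0.

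Markers on the same WT arrays give the setting. Fibroblast markers lay below macrophages for 10 of 12 in small intestine (median -1.60) and for 10 of 12 in salivary gland (median -1.56). Of all genes 57% and 55.7% lay below, with medians of -1.35 and -1.10, so the fibroblast medians are close to those of all genes. Macrophage markers were not set apart in the macrophage preparation: against small intestine 5 of 12 were higher in macrophages and 2 lower, with a median of -0.47, above the -1.35 of all genes, and against salivary gland the median was 0.44. Smooth muscle markers were higher in small intestine for 8 of 10 (median 1.80) and epithelial markers for 7 of 10 (median 1.36), beside 5766 of all 23149 genes. Against macrophages, enterocyte markers were higher in small intestine for 8 of 8 and acinar markers in salivary gland for 7 of 7, which checks those tissue labels.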

How the data were processed

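Agilent single-colour arrays were analysed. The deposited files hold each spot's scanner intensity, background-subtracted by Agilent's software per the file headers, with flags for spots well above background. RNA was extracted with RNeasy and labelled with the Kreatech ULS kit, per the labels' protocols. The series table deposited by the authors, with intensity values whose distribution is shared by the arrays of each tissue, served as an alternative. Outlier spots (0.43%) were left out and spots of a probe were averaged. Log2 values were set to each array's 75th percentile, over all 39429 probes in small intestine and macrophages and over the 9555 detected on every array in salivary gland. Genes were named from RefSeq by accession (27446 probes), by synonym (404) or as in the file (11579).

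Genotypes were compared within each tissue, and tissues and interactions over all 20 arrays, with limma 3.58.1 (R 4.3.3) and Benjamini-Hochberg adjustment over all genes detected on 3 or more arrays of a tissue. Fits were tested on simulated data. Same-numbered mice deviated together in small intestine (correlations 0.23, 0.28 and 0.33) and macrophages (0.45, 0.24 and 0.63). A paired fit is therefore given there, though the labels state no pairing and the choice rests on these same data. Values per sample are given for the main chains of types I, III, IV, XVIII and VI and the 3 members of smallest p in each tissue, and of other lists for up to 3 called genes or the 2 of smallest p; a few further genes were named after their values were seen. The members and lists were chosen with earlier results of these data known.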

Additional observations from a re-analysis of the deposited data

Results flagged for a closer look

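In salivary gland, 38 sets of 4 arrays were checked for a sample far from the others, and chance alone marks about 1 in 20 such sets. Col6a2 in Irgm1-/- mouse 3 stood at -4.85, with the other 3 between -4.05 and -3.97. Col14a1 in WT mouse 2 stood at -5.50, with the others between -4.88 and -4.83, and it is well above background on 1 of these WT arrays.

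Of 62 tests of whether a collagen's genotype difference differed between a pair of tissues, 18 passed (limma adjusted p under 0.05). Between small intestine and macrophages these were Col4a1 (2.76), Col27a1 (2.72), Col18a1 (2.34), Col6a2 (2.29), Col4a2 (2.21) and Col3a1 (1.54). Between salivary gland and macrophages these were Col4a1 (3.08), Col18a1 (2.82), Col4a2 (2.65), Col5a1 (2.50), Col5a3 (2.39), Col6a1 (2.27), Col6a3 (2.23), Col14a1 (2.19), Col16a1 (2.17), Col6a2 (1.91), Col3a1 (1.45) and Col1a2 (1.33). Both sets rest on the same 6 macrophage arrays and on 1 estimate of the spread over the tissues.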

How the results depend on the processing

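The number of arrays limits the precision, and salivary gland, the dimmest set, resolves the fewest collagens. The causes of the changes listed here were not tested. For the genotype differences, salivary gland gave 1 called gene, Col18a1, with the slide as a block or with a replicate block (pair correlations 0.21, -0.09, -0.51 and 0.43, so the numbers there do not pair), and a median of -0.34 with no filter on dim probes. Small intestine had a median of -0.04 with normexp. Macrophages gave 1 called gene with normexp or median scaling, 16 with the replicate block and, when all 20 arrays were fitted together, 14 (no share of all genes is given for that fit). The replicate block called 0 of the 30 collagens in small intestine, as did the fit without it.

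Leaving out 1 array kept the genotype counts at 0, with medians of 0.17 to 0.46 in salivary gland, 0.12 to 0.39 in small intestine and -1.58 to -0.99 in macrophages. The interaction counts ran from 0 to 13 for small intestine against macrophages (median 1.23 to 1.84) and from 11 to 13 for salivary gland against macrophages (median 1.5 to 2.39). The former were 3 with normexp or median scaling, 0 with no filter and 10 with the shared animals as a replicate block, an alternative chosen after seeing the data. The latter gave a median of 0.68 with no filter and 7 of 10 called among genes detected on every array.

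Between WT tissues the medians for small intestine minus macrophages were -0.92 in the Irgm1-/- arrays, -1.73 with quantile, -0.12 with median scaling and -1.68 with the percentile over all probes, and 18 genes passed among those detected on every array. For salivary gland minus small intestine they were -0.13 in the Irgm1-/- arrays, 0.84 with normexp, -0.36 with quantile, -0.59 with median scaling, 0.70 with all probes averaged and 1.31 with no filter, and the counts 30 with no filter and 4 among genes detected on every array. For salivary gland minus macrophages they were -1.34, -1.24 with normexp, -0.46 with median scaling and -0.96 with the percentile over all probes, and the counts 20 with median scaling and 9 on every array.

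Signs turned for Col4a1 (1.31), Col18a1 (0.91), Col6a1 (0.34) and Col6a3 (2.13) in small intestine minus macrophages in the Irgm1-/- arrays, and for Col1a1 (0.19), Col1a2 (0.27), Col4a1 (0.78), Col18a1 (0.81), Col6a1 (0.83) and Col6a3 (2.24) with median scaling. They turned for Col4a1 (1.71), Col18a1 (0.09) and Col6a3 (0.88) in salivary gland minus macrophages in the Irgm1-/- arrays, and for Col4a1 (0.26) and Col6a3 (0.27) with median scaling. Between salivary gland and small intestine they turned for Col18a1 (0.25, normexp) and Col3a1 (-0.83, median scaling).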
